A study of Homo sapiens with 4 samples.

Results

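The 10 genes described here, GAS5, SNHG1, SNHG5, SNHG6, SNHG7, SNHG8, SNHG12, SNHG15, SNHG16 and EPB41L4A-AS1, are spliced noncoding genes that host small nucleolar RNAs (snoRNAs) in their introns and whose spliced RNA is known to be removed by nonsense-mediated decay. They were chosen by name for that property and are 10 of the 60279 genes listed. All 10 are annotated as long noncoding RNAs, and their coordinates below are those of GENCODE 44 on GRCh38. The cells were SUM159, an established line of triple-negative breast cancer. The data used here hold 1 RNA library per condition: without drug, with palbociclib, with indisulam, and with palbociclib plus indisulam (the combination). The methods of the study state that its RNA sequencing experiments were done in duplicate. Whether each library here is a single replicate or a pool is not given in the sources used here. Palbociclib is an inhibitor of the kinases CDK4 and CDK6 that drive entry into the cell cycle, and indisulam is a sulfonamide that brings the splicing factor RBM39 to the DCAF15 ubiquitin ligase, which leads to the loss of RBM39 protein. The labels give palbociclib at 0.5 µM and indisulam at 2 µM over 10 days, whereas the series text gives 2 µM and 3 µM over 16 h in technical duplicates. The study describes these as separate experiments: the treatment in the labels is the one it used on these cells for senescence signatures, and that in the series text is the one it used to measure splicing, with reads aligned by Hisat2. The submitters' processing notes name TopHat2 for the counts used here, and the groups and treatments were taken from the labels. Control cells are described as untreated, and no vehicle is named for them.

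A snoRNA host gene is transcribed and spliced, the snoRNA is trimmed out of an intron, and the joined exons are exported. The exported RNA carries short reading frames that ribosomes enter, and their stop codons lie upstream of exon junctions, so that the surveillance factor UPF1 and its partners mark the RNA for degradation. The level of such an RNA therefore depends on its synthesis, its splicing, its translation and its decay, and these steps cannot be told apart from the amount of RNA in a library. Many of these hosts are of the 5′ terminal oligopyrimidine (TOP) class, a kind of transcript that begins with C and a run of pyrimidines and includes the mRNAs of ribosomal proteins. GAS5 was named for its rise in growth-arrested cells.

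Each library held 12555908 to 16712174 reads assigned to genes. Levels are given as counts per 1000000 gene reads (CPM), and ratios as log2 of depth-scaled counts with 1 scaled count added to each. With 1 library per condition there was no replicate check and no p-value, and the 95% intervals cover counting error only. A gene was called when it differed by at least 2-fold with an interval that excluded equality, and a 1.5-fold criterion was used as an alternative. Noise between libraries was bounded by the departure of the combination from the sum of the single-drug effects. Its robust spread over genes of like level set an upper bound on the typical standard deviation (SD) of 1 log2 ratio. This was 0.28 at 100 CPM or more and 0.26 between 20 and 100 CPM. A single gene can vary more, and a ratio outside this bound of 1 SD is not thereby beyond noise. All 10 hosts were among the 14269 genes with a mean of at least 1 CPM. Tested genes with means under those of the hosts had larger bounds, 0.62 between 1 and 5 CPM and 0.37 between 5 and 20 CPM. The shares given for all tested genes include these noisier genes. VIM, CD44 and AXL, mesenchymal genes of this line, had 3313, 791 and 308 CPM on average, and ESR1, PGR, CDH1 and EPCAM had at most 1.19 CPM, while ERBB2 stood at 125.7 CPM. In these bulk samples fewer cells of one state and less RNA per cell cannot be told apart.

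RefSeq (GRCh38.p14) gave a promoter sequence for 8 of the 10 hosts, not for SNHG6 and SNHG15. The start regions are shown because they carry what several hosts share and the choice of genes did not use. In 4 of the 8, SNHG5, SNHG7, SNHG8 and SNHG12, the letters TATAA lay between 45 and 11 bases before the start on the transcribed strand, against 4.25% of 35116 promoters. A run of C and at least 4 pyrimidines began within 5 bases of the start in 5 of the 8, against 21.1% of promoters, and in SNHG5 and SNHG12 the start base itself was a C followed by 4 pyrimidines, against 4.07%. In SNHG12 the marked run began 1 base before the start. TATAA and the tract occurred together in 4 of the 8, against 0.871% of promoters. Each line below runs 5′ to 3′ from 40 bases before the RefSeq start to 20 bases from it on, with TATAA and the tract in capitals where they were found.
SNHG5, chr6:85678714-85678773, minus strand: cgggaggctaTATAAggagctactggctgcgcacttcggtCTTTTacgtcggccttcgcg
SNHG12, chr1:28581854-28581913, minus strand: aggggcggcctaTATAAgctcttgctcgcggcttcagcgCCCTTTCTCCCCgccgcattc
SNHG7, chr9:136728165-136728224, minus strand: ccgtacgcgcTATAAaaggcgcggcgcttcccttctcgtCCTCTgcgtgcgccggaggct
SNHG8, chr4:118278722-118278781, plus strand: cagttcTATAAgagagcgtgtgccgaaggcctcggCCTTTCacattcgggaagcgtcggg
SNHG16, chr17:76557724-76557783, plus strand: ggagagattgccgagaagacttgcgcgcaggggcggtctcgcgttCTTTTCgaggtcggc
SNHG1, chr11:62855866-62855925, minus strand: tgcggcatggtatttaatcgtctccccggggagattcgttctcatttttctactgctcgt

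SNHG16 held the tract without TATAA, and SNHG1, GAS5 and EPB41L4A-AS1, the last 2 not printed, held neither at the positions searched. On either strand of the promoters from 250 bases before to 50 bases after the start, the E-box CACGTG was found in SNHG7 alone among the 8 (7.26% of promoters) and the cAMP response element TGACGTCA in 0 of the 8 (1.85%). These matches describe letters and no binding was measured. The hosts that share TATAA and the tract did not share a response: against untreated cells, their log2 ratios with indisulam were -0.52 for SNHG5, 0.69 for SNHG12 and 0.83 for SNHG7, and SNHG8 did not differ beyond counting error.

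The hosts did not move as one group (plot of levels by library). Their summed level was 1335 CPM in untreated cells, 1278 CPM with palbociclib, 1677 CPM with indisulam and 1377 CPM with the combination. The indisulam library held the highest level of 6 of the 10, GAS5, SNHG1, SNHG7, SNHG12, SNHG15 and EPB41L4A-AS1, whereas this library was the highest for 23.8% of all tested genes. SNHG5, SNHG6 and SNHG8 were highest in untreated cells, SNHG8 by a margin far inside its counting error, and SNHG16 was highest in the combination.

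**Figure D1:**
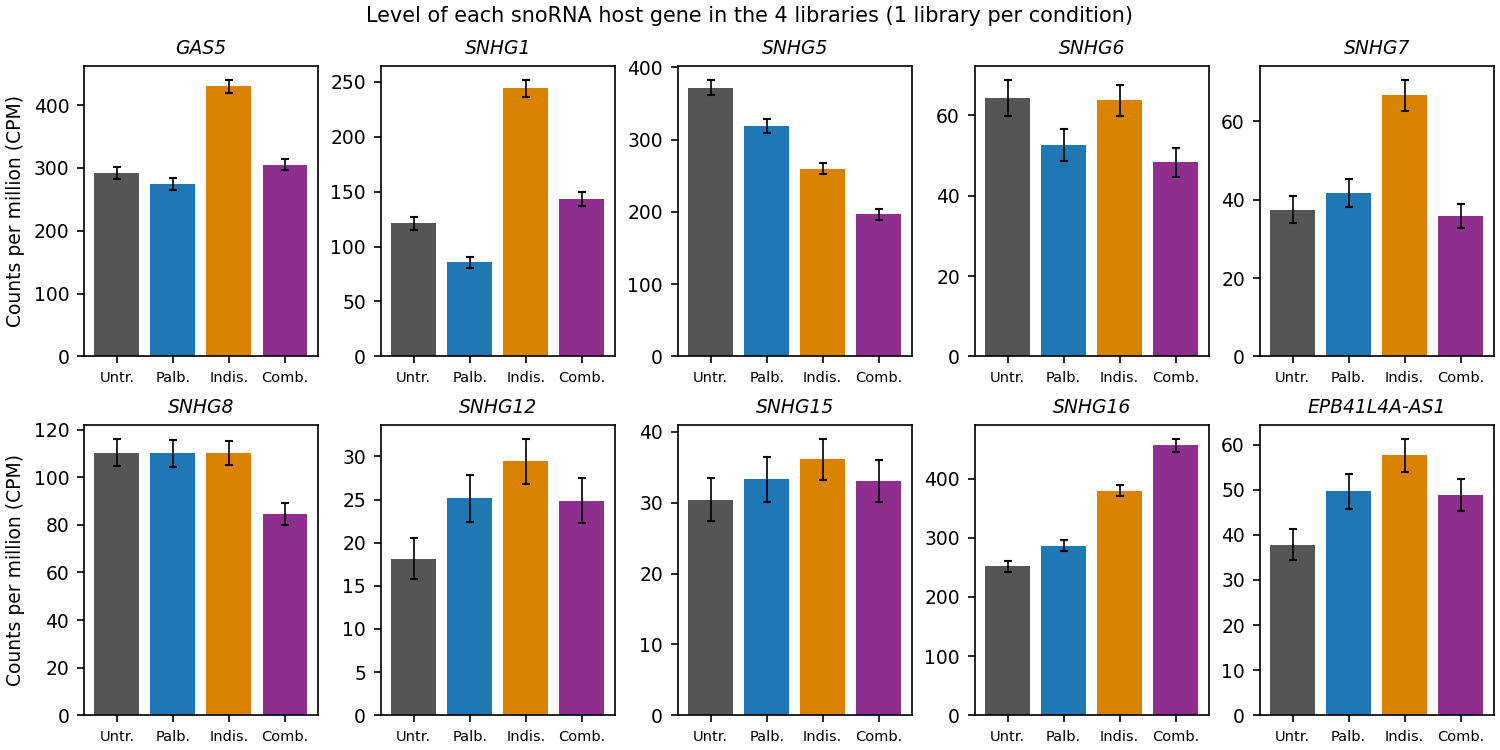
Level of each of the 10 host genes in CPM (y axis, from 0, own scale per gene) in the untreated, palbociclib, indisulam and combination libraries (x axis), 1 library each. Bars are the library's value and error bars the 95% counting interval. GAS5, SNHG1 and SNHG7 have their highest bar with indisulam, SNHG5 has lower bars in each treated library than in untreated cells, and SNHG16 has its highest bar in the combination.

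Levels between hosts were compared per kilobase (kb) of merged exons in the GENCODE 44 models, which need not be the release the reads were counted on. In untreated cells the order was GAS5 at 59.3 CPM per kb, SNHG16 at 43.5, SNHG1 at 30.5, SNHG5 at 29.5, SNHG6 at 25.5, SNHG8 at 16.7, EPB41L4A-AS1 at 8.81, SNHG15 at 7.72, SNHG7 at 7.67 and SNHG12 at 4.26. Neighbours in this order from SNHG1 to SNHG6, and from EPB41L4A-AS1 to SNHG7, differed by less than the bound on noise. That bound is for a gene between libraries and does not cover errors between genes, such as that of the gene model. By the longest transcript SNHG5 moved up to 64.5 CPM per kb and the third place, so the middle of the order depends on the gene model. In the combination SNHG16 led with 79.0 CPM per kb and GAS5 followed with 61.9, by either length.

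The first set of hosts carries box C/D snoRNAs, the class that guides ribose methylation of other RNAs: GAS5, SNHG1, SNHG5, SNHG6 and SNHG16. The class of GAS5 is background knowledge, since the GENCODE models used here place no snoRNA gene inside it. GAS5 (chr1:173858559-173868882), the most abundant host per kb in untreated cells, had 292 CPM untreated, 274 CPM with palbociclib, 429.8 CPM with indisulam and 305 CPM with both drugs. It was high in the indisulam library and near its untreated level in the others. The log2 ratio of indisulam to untreated was 0.56 (counting interval 0.50 to 0.61), or 1.47-fold, just under the 1.5-fold criterion, and its log2 ratio of the combination to untreated was 0.06, with an interval that reached 0.

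SNHG1 (chr11:62851978-62855953), host of SNORD22 and a series of neighbours, had 121 CPM untreated, 85.5 CPM with palbociclib, 244 CPM with indisulam and 143 CPM with both drugs. It was lowest with palbociclib and highest with indisulam, and the combination lay between. The log2 ratio of indisulam to untreated was 1.01 (0.92 to 1.09). SNHG1 was the 1 host of the 10 called at 2-fold in any of the 5 comparisons, and it sat so close to the threshold that 4 other scalings, at 0.94 to 0.99, put it under.

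SNHG5 (chr6:85650491-85678932), host of SNORD50B, went the other way, with 372 CPM untreated, 318 CPM with palbociclib, 259.9 CPM with indisulam and 197 CPM with both drugs. It was below untreated in each treated library and lowest with both drugs. The log2 ratio of the combination to untreated was -0.92 (-0.99 to -0.85). Its departure from the sum of the single-drug effects was -0.18, inside the noise bound. The annotated protein-coding gene ENSG00000271793 overlaps SNHG5 by 28243 bases on the same strand and had 0 counts in each library. Reads assignable to both genes were left out of the counts, so the level of SNHG5 may be understated.

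SNHG16 (chr17:76557727-76670985), host of SNORD1A, SNORD1B and SNORD1C, had 251 CPM untreated, 287 CPM with palbociclib, 379 CPM with indisulam and 456 CPM with both drugs. It was above untreated in each treated library and highest with both drugs, the reverse of SNHG5. Its log2 ratio of the combination to untreated was 0.86 (0.80 to 0.92), and its departure from the summed effects was 0.08. Its share of the summed host level went from 18.8% in untreated cells to 33.1% in the combination, while that of SNHG5 went from 27.8% to 14.3%.

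SNHG6, host of SNORD87, had 64.4 CPM untreated, 52.6 CPM with palbociclib, 63.7 CPM with indisulam and 48.3 CPM with both drugs. It was lower in the libraries with palbociclib than in those without. Palbociclib against untreated gave a log2 ratio of -0.29 (-0.44 to -0.14), and the combination against indisulam, a pair that shares no library with the first, gave -0.40 (-0.54 to -0.26). Both were under the 1.5-fold criterion.

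The second set carries mainly box H/ACA snoRNAs, the class that guides pseudouridylation: SNHG7, SNHG8, SNHG15, EPB41L4A-AS1 and SNHG12, which also holds the box C/D snoRNA SNORD99. SNHG7 (chr9:136721366-136728184), host of SNORA17A and SNORA17B, had 37.5 CPM untreated, 41.8 CPM with palbociclib, 66.7 CPM with indisulam and 35.8 CPM with both drugs. The indisulam library stood alone and the other libraries lay together. The log2 ratio of indisulam to untreated was 0.83 (0.67 to 0.98), against -0.22 (-0.40 to -0.05) for the combination to palbociclib. The second of these lay inside the noise bound.

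SNHG12 (chr1:28578538-28583132) was the host with the fewest counts, 228, 319, 492 and 357 in untreated, palbociclib, indisulam and combination cells. EPB41L4A-AS1 (chr5:112160526-112164818), host of SNORA13, had 37.8 CPM untreated, 49.6 CPM with palbociclib, 57.7 CPM with indisulam and 48.9 CPM with both drugs. In CPM, SNHG12 had 18.2, 25.1, 29.4 and 24.9 in the same order. The 2 genes had one pattern: lowest untreated, highest with indisulam, and in the combination at the level of the palbociclib library, with log2 ratios of -0.02 each. SNHG15, described below, had the same order with smaller differences. With palbociclib against untreated the log2 ratio was 0.47 (0.22 to 0.71) for SNHG12 and 0.39 (0.22 to 0.56) for EPB41L4A-AS1.

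SNHG8 (chr4:118278703-118285316), host of SNORA24, had 110.4 CPM untreated, 110.1 CPM with palbociclib, 110.3 CPM with indisulam and 84.6 CPM with both drugs. Neither drug alone moved it beyond counting error, and the combination was lower, with a log2 ratio to untreated of -0.38 (-0.49 to -0.27). SNHG15 (chr7:44983019-44986961), host of SNORA9, varied least, with 30.4 CPM untreated, 33.3 CPM with palbociclib, 36.1 CPM with indisulam and 33.1 CPM with both drugs. Its ratios were inside the noise bound in all 5 comparisons.

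With palbociclib against untreated, which asks what CDK4/6 inhibition alone does to the hosts, 0 of the 10 were called at 2-fold, where 10.9% of all tested genes were called. At 1.5-fold 0 hosts were higher, against 12.7% of genes, and 0 were lower, against 12.3%. The median log2 ratio was 0.06 over the hosts and -0.02 over all tested genes, and 6 of the 10 hosts lay within the noise bound. By snoRNA class, the box C/D hosts ranged from -0.50 (SNHG1) to 0.19 (SNHG16) and the hosts of box H/ACA snoRNAs up to 0.47 (SNHG12) from no difference beyond counting error (SNHG8), a split made after the values were known.

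With indisulam against untreated 1 of the 10, SNHG1, was called at 2-fold and higher, where 15.2% of all tested genes were called in either direction. At 1.5-fold 5 hosts rose, SNHG1, SNHG7, SNHG12, EPB41L4A-AS1 and SNHG16, a larger share than the 17.3% of tested genes, and 0 fell, against 14.3%. The median log2 ratio was 0.57 over the hosts and 0.06 over all tested genes, and 7 of the 10 hosts were above 0 under each of the scalings tried. EPB41L4A-AS1 at 1.52-fold and SNHG16 at 1.51-fold were just inside the criterion, and GAS5 was just outside it. Scaled by trimmed mean of M-values (TMM) factors, 3 hosts rose, SNHG1, SNHG7 and SNHG12, against 14.8% of genes, and 1 fell, SNHG5, against 16.4%.

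With the combination against untreated 0 of the 10 were called at 2-fold, where 23.5% of all tested genes were called. At 1.5-fold SNHG16 rose, 1 host of 10 against 23.2% of tested genes, and SNHG5 fell, 1 of 10 against 19.5%. The median log2 ratio was 0.09 over the hosts and 0.05 over all tested genes. With 10 hosts, a count of 1 in each direction cannot be told apart from the share among all genes. The sign of the median depended on the scaling, with -0.00 under TMM factors.

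**Figure D2:**
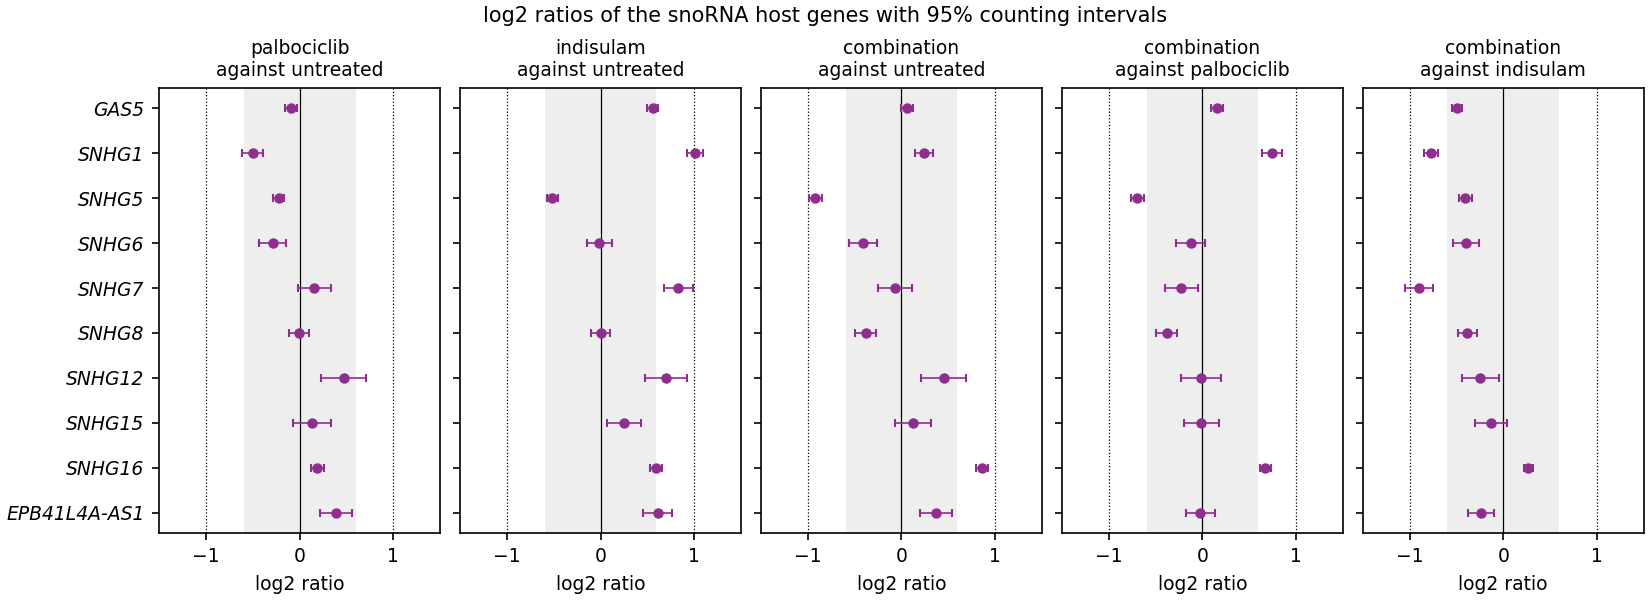
log2 ratio (x axis) of each of the 10 host genes (y axis) in the 5 comparisons, 1 library per condition. Points are ratios, bars 95% counting intervals, the grey band marks ratios under 1.5-fold and the dotted lines mark 2-fold. With indisulam against untreated 5 genes lie right of the band, and with the combination against indisulam 9 of 10 lie left of 0.

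The combination was then set against each drug alone. Against palbociclib 0 of the 10 hosts were called at 2-fold, where 17% of all tested genes were called. At 1.5-fold SNHG1 (log2 ratio 0.74, 0.64 to 0.85) and SNHG16 (0.67, 0.61 to 0.73) rose, 2 of 10 against 18.5% of genes, and SNHG5 fell (-0.70, -0.77 to -0.63), 1 of 10 against 14.5%. SNHG16 was under 1.5-fold here with TMM factors. The median was -0.02 over the hosts and 0.07 over all tested genes.

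Against indisulam 0 of the 10 hosts were called at 2-fold, where 8.28% of all tested genes were called. At 1.5-fold SNHG7 fell (log2 ratio -0.90, -1.05 to -0.75), as did SNHG1 (-0.77, -0.84 to -0.69), 2 of 10 against 10.3% of genes, and 0 rose, against 12.1%. The median was -0.39 over the hosts and -0.01 over all tested genes. Under each of the scalings tried, 9 of the 10 hosts were below 0, SNHG16 being the exception with 0.27 (0.22 to 0.32) in the scaling by total counts.

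The layout estimates each drug's effect once without and once with the other drug, from pairs that share no library (plot of the paired estimates). For indisulam, 2 hosts rose at least 1.5-fold in both estimates, SNHG1 and SNHG16, as did 10.5% of all tested genes. GAS5 joined them when both intervals had merely to lie above 0, 3 of 10 against 25.2% of genes, and SNHG5 was below 0 in both, 1 of 10 against 18.5%. For palbociclib, 0 hosts passed 1.5-fold in both estimates in either direction. GAS5, SNHG1, SNHG5 and SNHG6 had both intervals below 0, 4 of 10 against 17.8% of genes, and SNHG16 had both above 0, 1 of 10 against 16.0%. These intervals cover counting error only, and genes with few counts pass such a criterion less easily. The median counting error was 0.56 between 1 and 5 CPM and 0.12 between 20 and 100 CPM. Each host had a mean of at least 24.4 CPM, so the shares of all tested genes are not a like background here. For palbociclib against untreated GAS5 and SNHG5 lay inside the noise bound, and SNHG16 did so in both palbociclib estimates. For the combination against palbociclib GAS5 lay inside it too.

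**Figure D3:**
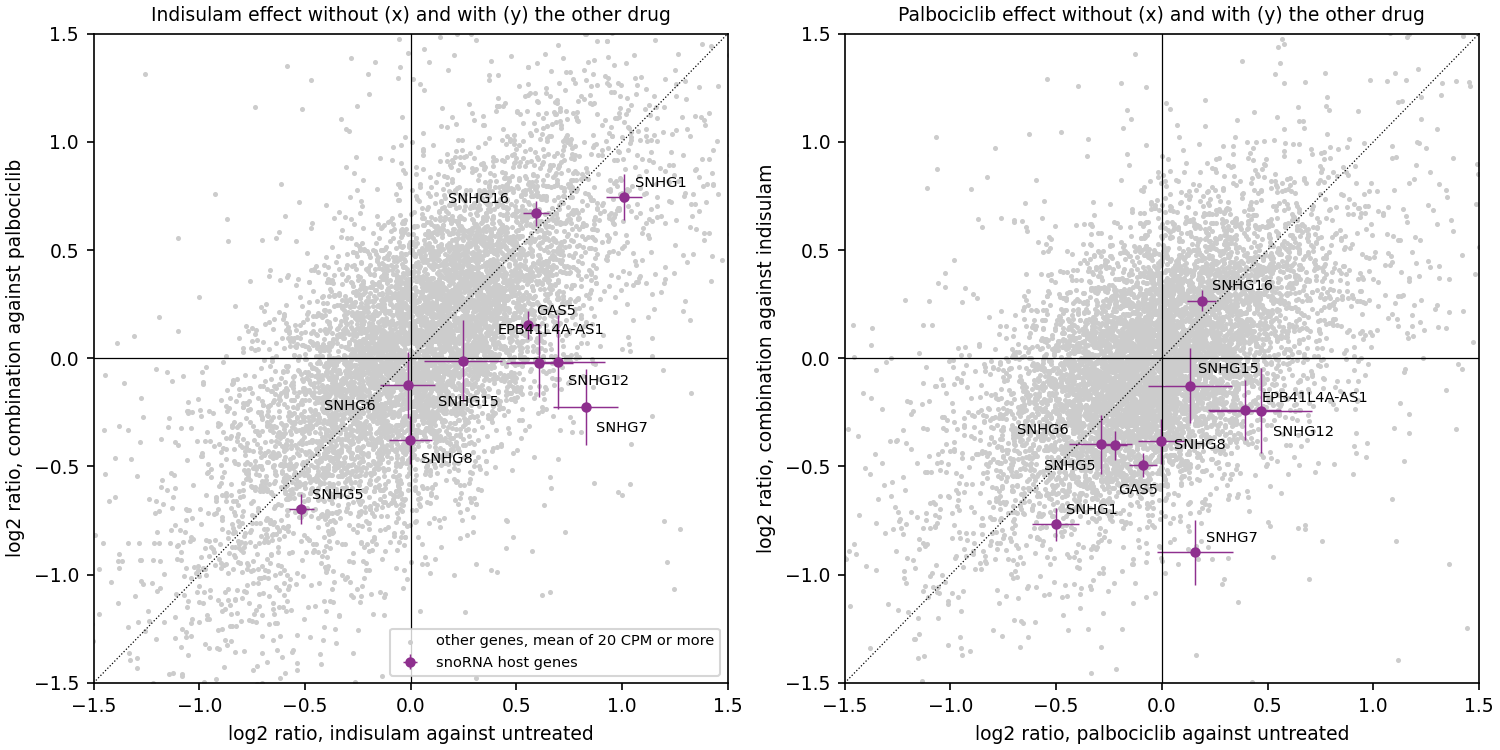
log2 ratio for indisulam (left) and palbociclib (right) without the other drug (x axis) and with it (y axis), 1 library per condition. Purple points are the 10 hosts with 95% counting intervals, grey points other genes with a mean of 20 CPM or more inside the plotted range, and the dotted line marks equal effects. SNHG1 and SNHG16 lie in the upper right on the left, and SNHG7, SNHG12, SNHG15 and EPB41L4A-AS1 lie right of 0 in x and below 0 in y in both panels.

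The departure from the sum of the single-drug effects was negative for 9 of the 10 hosts, with a median of -0.32 against 0.01 over all tested genes. Of the 10 departures, 5 lay inside the noise bound of a single ratio. Departures themselves spread more, with a robust SD of 0.37 between 20 and 100 CPM and 0.40 at 100 CPM or more. Lists of related genes had negative medians too: -0.31 over ribosomal protein genes (78 of 82 below 0), -0.25 over protein-coding snoRNA hosts (35 of 38), -0.25 over other TOP mRNAs (15 of 17) and -0.18 over other noncoding hosts (10 of 17). SNHG7 was 2-fold below the sum (-1.05, interval -1.29 to -0.82), 1 of 10 against 3.93% of tested genes. SNHG12 followed with -0.71 (-1.02 to -0.40), EPB41L4A-AS1 with -0.63 (-0.85 to -0.41) and GAS5 with -0.40 (-0.49 to -0.32). Since the same 4 libraries enter each of these values, they are not 10 independent observations of the layout.

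The other noncoding hosts, 17 tested of 20 listed, covered a wider range. With indisulam their median log2 ratio was 0.37, 6 rose at least 1.5-fold and 1 fell, SNHG25. Genes under 5 CPM, named after their values were seen, lay at both ends: SNHG25, with a mean of 1.47 CPM, at -0.86, and SNHG26, with a mean of 1.73 CPM, at 2.47 (1.45 to 3.49), while the combination gave SNHG26 a log2 ratio to untreated of 1.47. In the combination against untreated the median was 0.27, with, among genes of 5 CPM or more, SNHG30 at 1.04, SNHG10 at 0.99 and SNHG20 at 0.93 at the upper end and SNHG3 at -1.21, SNHG18 at -0.70 and SNHG19 at -0.54 at the lower. Against indisulam the median of the combination was 0.06 and 8 of the 17 were below 0, beside 9 of 10 for the hosts, a difference that was not tested. SNHG29, the most abundant of them with a mean of 817 CPM and chosen after its values were seen, had a log2 ratio of 0.67 with indisulam and -0.63 for the combination against indisulam. SNHG3 lies at the RCC1 locus, and reads assignable to more than 1 gene were left out of the counts.

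The protein-coding snoRNA hosts, of which 38 were tested, had a median of 0.07 with indisulam, near the 0.06 of all tested genes, and at 1.5-fold 3 rose, NOP56, HSPA8 and TAF1D (the last named after its values were seen), and 1 fell, RCC1. In the combination against untreated their median was -0.36, with 4 higher and 6 lower at 1.5-fold, the fourth of those higher being WDR43, named after its values were seen. At the upper end were NOP56, a core protein of box C/D particles, at 0.95, and the chaperones HSPA8 at 0.80 and HSPA9 at 0.78, and at the lower end RPL3 at -0.90, RCC1 at -0.79 and EIF4A1 at -1.07. EIF4A1, an abundant translation factor, had 6.89 to 14.6 CPM here, and reads in overlapping genes or in several places were not counted.

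TOP mRNAs were read beside the hosts because SNHG5 and SNHG12 had C and 4 pyrimidines from the start base. The start sequences of the listed mRNAs were not examined. Over 82 ribosomal protein genes, 20 of which are also among the protein-coding hosts, the median log2 ratio was 0.05 with indisulam alone. The 82 were taken by symbol and include paralogs such as RPL26L1, RPL7L1 and RPL39L, which need not be TOP mRNAs. The combination had a median of -0.36 against untreated and of -0.38 against indisulam. Among those with a mean of 5 CPM or more, RPL3, RPLP0 and RPS29 were lowest in the combination against untreated (-0.90, -0.90 and -0.89). RPL26L1, RPS10 and RPL7L1 were highest there (0.23, 0.15 and 0.13). RPS10 had 21.2 to 24.3 CPM, and reads in overlapping genes or in several places were not counted. At 1.5-fold 8 of the 82 fell and 1 rose, RPL39L, which had 5.21 CPM or less in each library. Against indisulam 81 of the 82 were below 0 in the combination, most by less than 1.5-fold, with 5 past that criterion, RPL3, RPL21, RPL26, RPL36A and RPL39L, named like RPL39L above after their values were seen. The other TOP mRNAs, 17 tested of 18, had a median of -0.31 in that comparison with 17 of 17 below 0 and 0 past 1.5-fold, among them the elongation factor EEF2 at -0.35 and the nucleolar protein NPM1 at -0.37. For the combination against indisulam the hosts' median of -0.39 was thus close to that of the ribosomal protein genes, whereas with indisulam alone it was 0.57 against 0.05 (plot of the lists). The lists were not tested against each other.

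**Figure D4:**
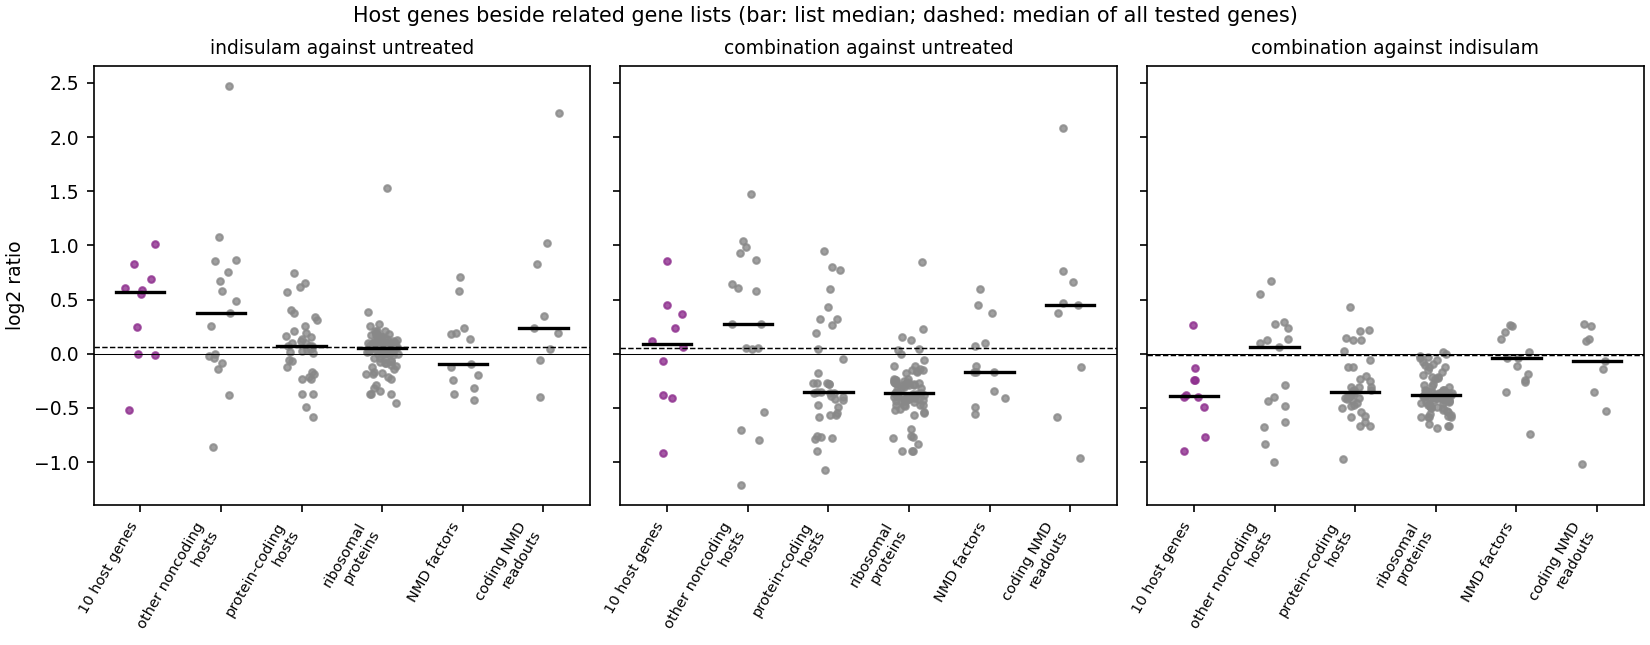
log2 ratio (y axis) of each tested gene in 6 lists (x axis) for indisulam against untreated, the combination against untreated and the combination against indisulam, 1 library per condition. Bars are list medians and the dashed line is the median of all tested genes. The 10 hosts have a median of 0.57 in the left panel, 0.09 in the middle and -0.39 in the right, where the ribosomal protein genes have -0.38.

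Among 13 factors of nonsense-mediated decay, the median was -0.09 with indisulam, and the combination had -0.16 against untreated. SMG1, the kinase that phosphorylates UPF1, rose with indisulam (0.71), the 1 of 13 past 1.5-fold there, and was the highest of the list in the combination (0.60), followed by SMG5 at 0.45 and UPF2 at 0.38. NBAS at -0.56, SMG9 at -0.49 and the endonuclease SMG6 at -0.41 were the lowest. The 7 exon junction complex genes had a median of 0.36 with indisulam, with MAGOHB at 0.88 the 1 past 1.5-fold, and 0.10 in the combination against untreated, from CASC3 at -0.55 to MAGOHB at 0.85. The 8 decay enzymes of RNA ends had 0 past 1.5-fold with indisulam and a median of 0.09, and for the combination they ranged from DCP1B at -0.47 to the decapping enzyme DCP2 at 0.15.

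Protein-coding mRNAs that are known to be limited by nonsense-mediated decay were read beside the hosts. Of 9 such genes, which include 2 of the decay factors, 3 rose at least 1.5-fold with indisulam and 0 fell, with a median of 0.24. The stress factor ATF3 had 34, 30, 216 and 168 counts in untreated, palbociclib, indisulam and combination cells, a log2 ratio of 2.23 with indisulam and 2.08 in the combination. ATF3 was near its indisulam level in the combination (-0.14 against indisulam). GADD45A at 1.02 and the uridine phosphorylase UPP1 at 0.83 were the other genes past 1.5-fold with indisulam. The translation-regulated factor ATF4 stood at -0.05 with indisulam and -0.58 in the combination, and GADD45B at 0.05 and -0.97.

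The core proteins of snoRNA particles, 8 genes, had a median of 0.17 with indisulam, and of 0.37 when the combination was set against untreated. NOP56 had 90.6 CPM untreated, 175 CPM with palbociclib, 152 CPM with indisulam and 175 CPM with both drugs. Its partner NOP58 rose at 1.5-fold in the combination (0.74) and NOP10, of the box H/ACA particle, was at 0.45. Fibrillarin (FBL), the methyltransferase of box C/D particles, was the exception, with 143 CPM untreated, 65.2 CPM with palbociclib, 133 CPM with indisulam and 63.0 CPM with both drugs. It was lower by over 2-fold in each library with palbociclib than in the matched library without it. The snoRNAs themselves were hardly seen in these poly(A) libraries: of 21 snoRNA genes inside the hosts in the count table, 2 had any count, with at most 2 counts in a library.

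SNHG1 starts 51 bases from SLC3A2, which is transcribed from the opposite strand with no overlap and encodes the heavy chain of several amino acid transporters. SLC3A2 had 1521 counts in untreated cells, 1055 under palbociclib, 4205 under indisulam and 8843 under both drugs, beside 1521, 1085, 4078 and 2058 for SNHG1. The pair had like counts in the first 3 libraries and parted in the combination, where SLC3A2 was highest and SNHG1 was between untreated and indisulam. The log2 ratio of the combination to indisulam was 1.29 for SLC3A2 and -0.77 for SNHG1, and to untreated it was 2.35 and 0.24.

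**Figure D5:**
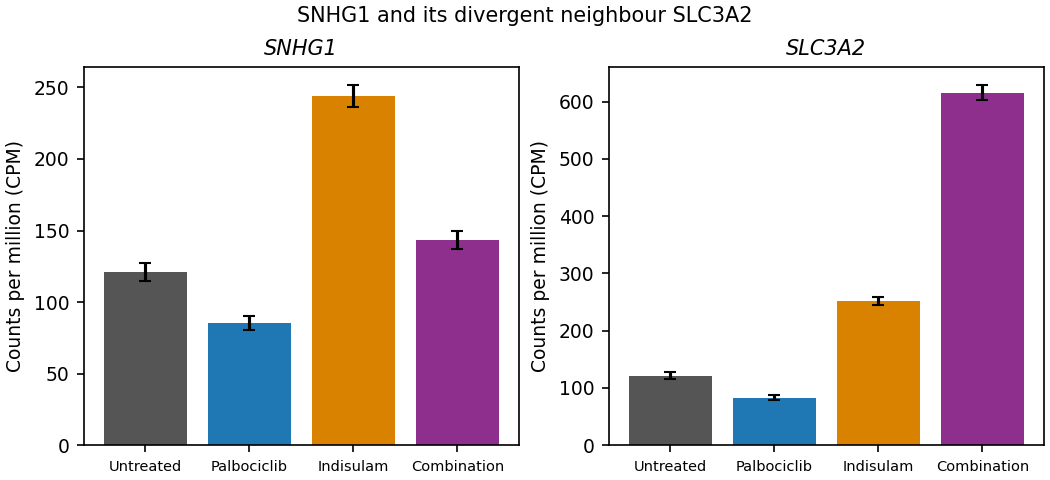
Level in CPM (y axis, from 0) of SNHG1 and of SLC3A2, which starts 51 bases away on the opposite strand, in the 4 libraries (x axis), 1 library each. Bars are the library's value and error bars the 95% counting interval. The bars of both genes run alike from untreated to indisulam, at 121, 85.5 and 244 CPM for SNHG1 and 121, 83.1 and 252 CPM for SLC3A2, and in the combination SNHG1 has 143 CPM and SLC3A2 616 CPM.

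At the other loci the neighbours gave no such parallel. ZBTB37 overlaps the start of GAS5 by 801 bases on the opposite strand and had log2 ratios of -0.91 with palbociclib, -0.14 with indisulam and -0.64 with both drugs, against -0.09, 0.56 and 0.06 for GAS5. The divergent gene ENSG00000267546, 44 bases from SNHG16, was under the level tested, with a mean of 0.912 CPM. ST6GALNAC2, which lies on the opposite strand inside the annotated span of SNHG16 and was chosen after its values were seen, had 119, 90, 30 and 7 counts in untreated, palbociclib, indisulam and combination cells, the reverse order of SNHG16. EPB41L4A, which covers EPB41L4A-AS1 on the opposite strand, had 2 to 4 counts in a library. The strand setting of the counting is not given in the sources used here, and where genes overlap on opposite strands without it their reads cannot be told apart.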

How the data were processed

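The study prepared stranded mRNA libraries from SUM159 cells. Per the labels RNA was extracted with Trizol, and the methods of the study name a column kit. The authors deposited whole-number read counts per Ensembl gene for each library, and the submitters' processing notes name GRCh38, TopHat2 2.1 and HTSeq. The annotation release and strand setting are not given in the sources used here. HTSeq left out reads assignable to several genes (2.41 to 2.63% of reads) and to several places (6.46 to 6.84%), and these summary lines were kept out of the totals of 12555908, 12691481, 16712174 and 14359529 gene counts (untreated, palbociclib, indisulam, combination).

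Groups were taken from the labels. Counts were scaled by the total over genes, as the study did, 1 scaled count was added, and log2 ratios were given Poisson intervals. Genes with a mean of 1 CPM or more were tested. Alternatives were TMM, RLE and upper-quartile factors (edgeR 4.0.16, R 4.3.3), a total without mitochondrially encoded genes (4.90 to 7.33% of gene counts), a pseudocount of 5 and a 1.5-fold threshold. The code was tested on simulated data. Symbols and models were from GENCODE 44, and SNHG4 was not matched. Named beside the hosts were, from each list, up to 3 genes highest and up to 3 lowest by the ratio of combination to untreated (mean of 5 CPM or more) and genes starting within 1 kb on the opposite strand. The members and lists were chosen with earlier results of these data known. Analyses used Python 3.11.15, numpy 2.4.6, pandas 2.3.3 and matplotlib 3.10.9.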

Additional observations from a re-analysis of the deposited data

Results flagged for a closer look

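For 3 hosts a drug's effect had opposite signs without and with the other drug, with both counting intervals on their own side of 0. With 1 library per condition the difference was not tested. For each of the 3 the estimate with the other drug lay inside the noise bound, so its sign is not secure. SNHG7 had a log2 ratio of 0.83 for indisulam against untreated and -0.22 for the combination against palbociclib, a departure from the summed effects of -1.05. With palbociclib against untreated SNHG12 had 0.47, and with the combination against indisulam it had -0.24, a departure of -0.71. EPB41L4A-AS1 had 0.39 and -0.24 in the same comparisons, a departure of -0.63. SNHG12 and EPB41L4A-AS1 each had their lowest level in the untreated library, and the untreated library enters each of these departures.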

How the results depend on the processing

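No host ratio past 1.5-fold changed sign under another scaling or pseudocount, while GAS5 in the combination against untreated went from 0.06 to -0.03 with TMM factors. The TMM, RLE and upper-quartile factors lay between 0.969 and 1.037, too close together to reverse a ratio past 1.5-fold. Of the 250 recomputed host ratios, 5 crossed the 2-fold threshold, and 20 others moved by more than counting error. The single 2-fold call, SNHG1 with indisulam, became 0 calls with TMM, RLE and upper-quartile factors and without mitochondrially encoded genes. At 1.5-fold it became 5 calls, all higher, against 17.3% of tested genes. In the combination against untreated there was 1 call at 2-fold with TMM factors (SNHG5, -1.01). The share of all genes was not computed for that setting. Scaled by total counts, 1 host was higher at 1.5-fold, against 23.2% of genes, and 1 lower, against 19.5%. For the combination against palbociclib 2 were higher at 1.5-fold, against 18.5%, and 1 lower, against 14.5%. Against indisulam 2 were lower, against 10.3%. The scalings of the 1.5-fold counts were added after seeing the data. With indisulam 3 hosts rose with TMM (14.8% of genes), RLE (15.1%) and upper-quartile factors (14.9%). In that comparison 1 fell with TMM and upper-quartile factors, against 16.4% of genes under each. For the combination against palbociclib 1 rose with TMM factors, against 15.1% of genes. Levels per kb moved for 10 of 10 hosts when the longest transcript gave the length. A scaling factor shifts each ratio of a comparison by one amount, and the 1.5-fold counts differ from the 2-fold ones by the threshold alone. No paired analysis was possible because each condition has 1 library, and for the same reason leaving out a replicate could not be run. Depth limited SNHG12 most, with 228 to 492 counts, and the drug, the library and the culture of a condition cannot be told apart.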
